A study of Homo sapiens with 12 samples.

Results

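The genes described here are 6 members of the intermediate filament family: the keratin genes KRT7, KRT8, KRT18, KRT19 and KRT80, and VIM, which encodes vimentin. They were chosen by name, with earlier results of these data known, and all 6 were found among the 57820 genes of the count tables. The study measured polyadenylated RNA in 12 libraries from 2 human esophageal squamous cell carcinoma lines, Kyse410 and TE10, with 3 libraries in each of 4 groups. The groups were Kyse410 with an shRNA against UHRF1 (shUHRF1), Kyse410 with a scramble shRNA, TE10 with the UHRF1 shRNA and TE10 with the scramble shRNA, and all of the cells had been stably infected. UHRF1 is a nuclear protein that binds hemimethylated DNA and recruits the maintenance DNA methyltransferase. The labels do not give the number of hairpin sequences, whether a line was cloned after infection, or whether replicate libraries stem from cultures grown apart. The p-values below therefore reflect only how far these libraries scatter, which could be technical scatter, and no uninfected cells were compared.

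Keratins form filaments only as pairs of a type I and a type II protein, so epithelial cells make both types together. KRT8 (type II) and KRT18 (type I) are the basic pair of simple, single-layered epithelia, and KRT7 (type II) and KRT19 (type I) are added in ducts and many other simple epithelia. KRT80 is a type II keratin found in many epithelia that is not usually counted among the simple-type keratins. Stratified squamous epithelium is instead built on KRT5 and KRT14, the keratins of its basal layer. Vimentin is a type III protein that assembles with itself, is the main filament protein of mesenchymal cells, and is often measured together with keratins when the epithelial state of carcinoma cells is described.

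The 6 proteins share a coiled-coil rod that ends in a conserved motif needed for filament assembly. The coding bases of that end are shown because they let the 6 members be compared at a site that all of them have. Each run was taken from the GENCODE v29 transcripts (GRCh38), is written 5′ to 3′ on the coding strand, and has capitals at the 16 of 30 bases that are the same in all 6 genes. The run of KRT7 lies in exon 7 at chr12:52245598-52245627 on the plus strand, that of KRT8 in exon 7 at chr12:52898684-52898713 on the minus strand and that of KRT18 in exon 6 at chr12:52952305-52952334 on the plus strand. The run of KRT19 lies in exon 6 at chr17:41523782-41523811 on the minus strand, that of KRT80 in exon 7 at chr12:52172203-52172232 on the minus strand and that of VIM in exon 6 at chr10:17235355-17235384 on the plus strand.
KRT7: ACCTACcGcaagCTGcTgGAgGgcgagGAg
KRT8: ACCTACaGgaagCTGcTgGAgGgcgagGAg
KRT18: ACCTACcGccgcCTGcTgGAaGatggcGAg
KRT19: ACCTACcGcagcCTGcTcGAgGgacagGAa
KRT80: ACCTACaGgaagCTGgTgGAgGgcgagGAg
VIM: ACCTACaGgaagCTGcTgGAaGgcgagGAg
Over these bases KRT8 matched VIM at 29, KRT80 at 28 and KRT7 at 27, whereas the type I genes KRT18 and KRT19 matched VIM at 21 each. Over whole transcripts the longest identical stretch was 65 bases, between KRT8 and KRT80. It was 41 bases between KRT7 and KRT8, 33 between KRT7 and KRT80 and 23 between KRT8 and VIM, and it was 12 to 18 bases in the other pairs. The lengths of the principal transcripts were 1754 bases for KRT7, 1882 for KRT8, 1562 for KRT18, 1390 for KRT19, 3859 for KRT80 and 1868 for VIM.

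Libraries held 7857662 to 12005229 reads assigned to genes. UHRF1 itself averaged 42.5 ± 0.892 CPM, the reads of a gene scaled to a common library size with TMM factors, in Kyse410 shUHRF1 and 99.1 ± 3.47 in Kyse410 scramble (SD, n = 3 each), and its log2 fold change was -1.22 (SE 0.0573, edgeR adjusted p = 1.62e-24). In TE10 it averaged 85.9 ± 3.50 CPM with the UHRF1 shRNA and 178.5 ± 5.34 with the scramble shRNA (log2 fold change -1.06, SE 0.0526, edgeR adjusted p = 3.22e-23). The 2 reductions differed by -0.16 on the log2 scale (edgeR adjusted p = 0.093). Of 10 squamous markers, KRT6B, PKP1 and SOX2 were nearly absent, with at most 10, 9 and 12 reads in a library. The squamous transcription factor gene TP63 was present in all groups, at 107.8 CPM in Kyse410 shUHRF1, 97.5 in Kyse410 scramble, 62.4 in TE10 shUHRF1 and 100.6 in TE10 scramble. The basal keratin KRT5 stood at 1.37, 1.14, 8.05 and 67.4 CPM in those groups. Of the other markers in Kyse410 scramble, PERP stood at 258.3 CPM, SFN at 198.1, KRT6A at 12.4, DSG3 at 11.7 and KRT14 at 4.39. The summed level of the 10 markers was 759.5 to 771.0 CPM in Kyse410 shUHRF1 and 581.3 to 587.9 in Kyse410 scramble, and 1161.0 to 1218.9 in TE10 shUHRF1 and 1425.0 to 1467.6 in TE10 scramble. Of the 7 squamous markers tested, 5 rose and 1 fell with the UHRF1 shRNA in Kyse410, and 1 rose and 6 fell in TE10. Over all 16060 genes tested, 22.6% were called higher and 26.7% lower in Kyse410, and 18.8% higher and 20.0% lower in TE10. Mitochondrial genes took 3.792 to 4.001% of gene reads in Kyse410 shUHRF1 and 2.30 to 2.43% in Kyse410 scramble, and 4.96 to 5.73% in TE10 shUHRF1 and 5.95 to 6.05% in TE10 scramble. The part of these shifts in the results below was not tested.

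After the UHRF1 shRNA, KRT19 rose in both lines and VIM changed in opposite directions, with a fall in TE10 and a small rise in Kyse410. KRT8 and KRT18 rose together in Kyse410, while KRT7 and KRT80 rose in TE10 and fell slightly in Kyse410. In Kyse410 4 of the 6 genes rose and 2 fell at an edgeR adjusted p under 0.05. Of all 16060 genes tested in Kyse410, 49.3% were called, 22.6% higher and 26.7% lower. In TE10 4 of the 6 rose, 1 fell and 1 was not called, against 38.8% of all genes called, 18.8% higher and 20.0% lower. Calls were thus frequent in both comparisons, and the sizes of the changes separate the members better than the calls do. Lower levels in bulk RNA cannot tell fewer cells making a transcript apart from less of it in each cell.

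**Figure D1:**
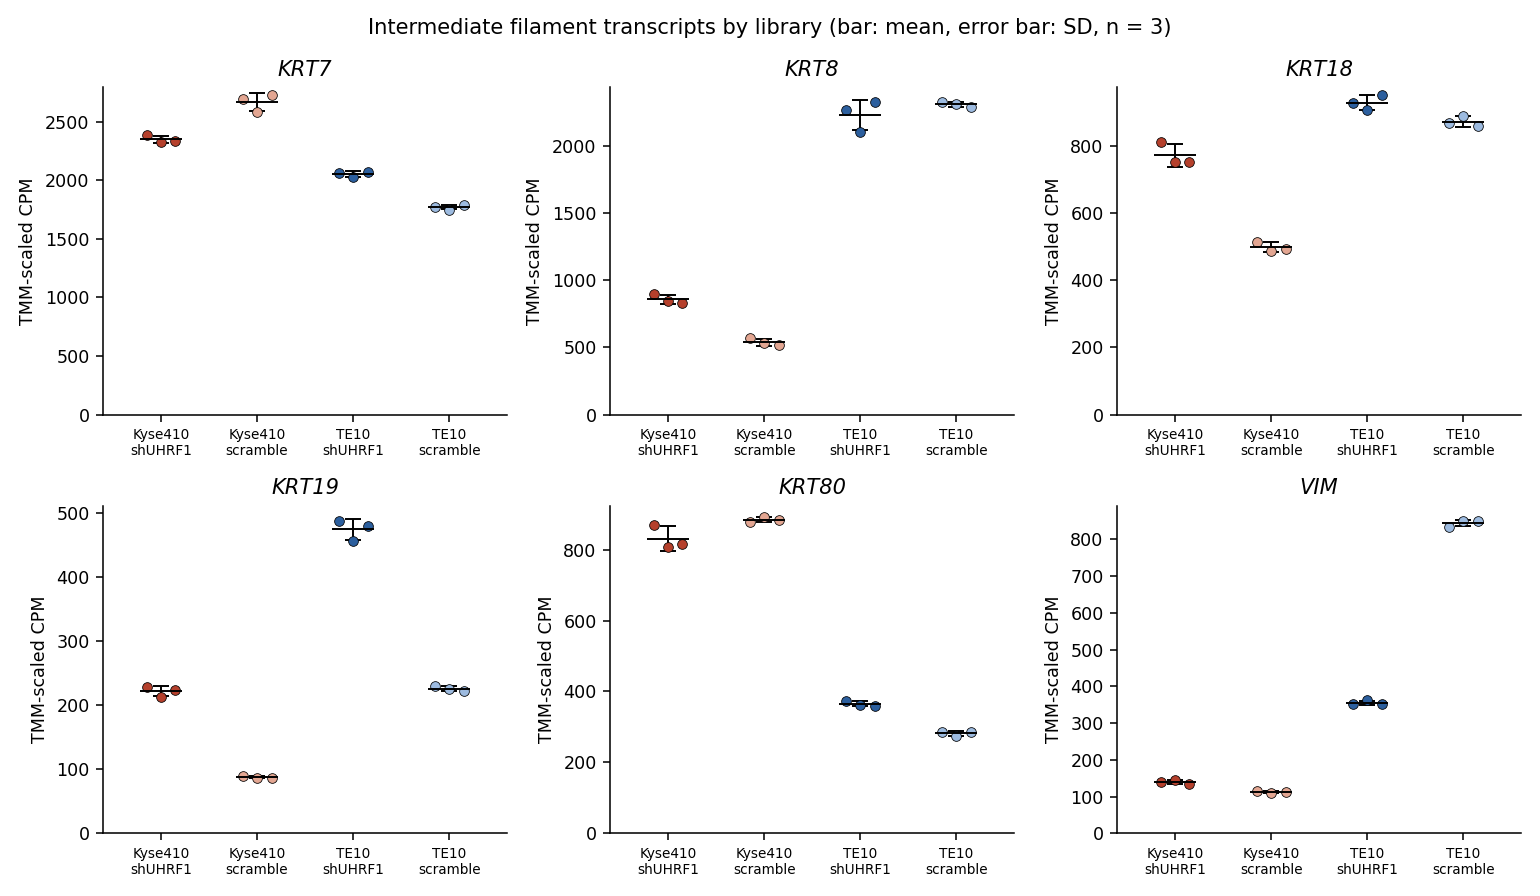
Level of each gene in every library, in CPM scaled by TMM (vertical axes, each starting at 0), by group (horizontal axes). Points are libraries, wide bars are means and error bars are SD (n = 3). KRT19 was higher with the UHRF1 shRNA in both lines, and VIM was highest in TE10 scramble at 834.4 to 850.5 CPM.

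VIM had 351.5, 362.0 and 352.9 CPM in the TE10 shUHRF1 libraries, against 834.4, 850.5 and 849.4 CPM in the TE10 scramble libraries. The groups were far apart, and the libraries within each lay close together. In TE10 the fall was 2.38-fold (log2 fold change -1.25, SE 0.0375, edgeR adjusted p = 1.03e-32), and 4.95% of all tested genes had a change of larger size. Kyse410 held much less vimentin RNA, with 139.1, 145.2 and 134.0 CPM in the shUHRF1 libraries, against 114.6, 108.7 and 111.0 CPM in the scramble libraries. There too the groups did not overlap, with every shUHRF1 library above every scramble library. VIM rose in Kyse410 by 0.32 on the log2 scale (SE 0.0439, edgeR adjusted p = 1.32e-08), or 1.25-fold, and 42.4% of tested genes changed by more.

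As vimentin is also the filament of stromal cells, markers of fibroblasts, vessels and blood cells were read in the same libraries. PDGFRA, LUM, DCN, COL1A2 and PTPRC peaked at 4, 2, 1, 1 and 2 reads in a library, VWF at 6, CD68 at 10 and CD14 at 9. Their summed level together with PDGFRB and CDH5 was 95.77 to 109.58 CPM in Kyse410 shUHRF1 and 31.17 to 32.24 in Kyse410 scramble, and 14.59 to 17.0 in TE10 shUHRF1 and 13.02 to 15.57 in TE10 scramble. Most of that sum was CDH5, the cadherin of endothelium, at 95.7 CPM in Kyse410 shUHRF1, 24.7 in Kyse410 scramble, 14.1 in TE10 shUHRF1 and 9.13 in TE10 scramble. PDGFRB, a gene of pericytes and fibroblasts, stood lower with the UHRF1 shRNA, at 3.47 CPM in Kyse410 shUHRF1 and 5.8 in Kyse410 scramble, and at 0.74 in TE10 shUHRF1 and 3.6 in TE10 scramble. These 2 genes were the only ones of the list with enough reads to be tested, and in each line 1 rose and 1 fell. The part of either in the VIM results was not tested.

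The RNA genes VIM-AS1 and AL133415.1 are annotated across VIM on the opposite strand. VIM-AS1 averaged 56.0 CPM in Kyse410 shUHRF1 and 45.6 in Kyse410 scramble, and 150.0 in TE10 shUHRF1 and 334.4 in TE10 scramble. Its log2 fold changes of 0.29 in Kyse410 and -1.16 in TE10 were close to those of VIM. AL133415.1 changed by 0.48 in Kyse410 and -1.12 in TE10. Since the strand setting of the counting is not given in the sources used here, reads of VIM and of these antisense genes cannot be told apart.

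KRT8 and KRT18, the obligate pair of simple epithelium, moved together in Kyse410. KRT8 had 896.6, 845.7 and 831.4 CPM in the Kyse410 shUHRF1 libraries, against 566.7, 531.2 and 517.2 CPM in the Kyse410 scramble libraries. KRT18 had 810.1, 751.9 and 751.0 CPM in Kyse410 shUHRF1, against 514.1, 487.5 and 492.1 CPM in Kyse410 scramble. For both genes every shUHRF1 library lay above every scramble library with a wide gap. The log2 fold changes in Kyse410 were 0.67 for KRT8 (SE 0.0370, edgeR adjusted p = 1.07e-21) and 0.63 for KRT18 (SE 0.0358, edgeR adjusted p = 3.67e-21), or 1.59-fold and 1.55-fold.

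In TE10, where KRT8 was among the most abundant transcripts, the pair scarcely moved. KRT8 had 2262.9, 2103.1 and 2324.1 CPM in the TE10 shUHRF1 libraries, against 2323.7, 2313.6 and 2288.0 CPM in the TE10 scramble libraries. The groups overlapped, and the change of -0.05 on the log2 scale (95% interval -0.12 to 0.02, edgeR adjusted p = 0.28) was not called. KRT18 had 925.6, 906.0 and 949.9 CPM in TE10 shUHRF1, against 866.3, 888.3 and 858.7 CPM in TE10 scramble. Its groups did not overlap but nearly met. KRT18 was called in TE10 (log2 fold change 0.09, SE 0.0355, edgeR adjusted p = 0.0389), and the call was lost without TE10 shUHRF1 replicate 3 (adjusted p = 0.161), without TE10 scramble replicate 1 (0.109), without TE10 scramble replicate 3 (0.138) and with no filter on low counts (0.121).

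KRT8 and KRT18 are neighbours on chromosome 12, and in GENCODE v29 their exons share 525 bases on opposite strands, which is 7.63% of the KRT8 and 16.3% of the KRT18 exon bases. Both have many processed pseudogenes in the human genome, 51 annotated for KRT8 and 67 for KRT18. Reads assigned to those pseudogenes came to 0.493 to 2.42% of the KRT8 reads and 0.0705 to 0.209% of the KRT18 reads of a library. Of all 50-base windows of the transcripts, 36.9% for KRT8 and 31.8% for KRT18 also occurred in a pseudogene transcript, so the levels of both are uncertain to the extent that reads were split or set aside there.

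KRT19, the smallest keratin and one that lacks the usual tail domain, had the largest keratin change of the 5 in each line. It had 229.2, 213.2 and 224.1 CPM in the Kyse410 shUHRF1 libraries, against 90.1, 86.7 and 86.2 CPM in the Kyse410 scramble libraries. In TE10 it had 487.5, 456.2 and 480.4 CPM in shUHRF1, against 229.6, 225.4 and 221.9 CPM in scramble. In both lines every shUHRF1 library lay far above every scramble library. KRT19 rose by 1.34 on the log2 scale in Kyse410 (SE 0.0452, edgeR adjusted p = 1.02e-30, 2.53-fold) and by 1.07 in TE10 (SE 0.0410, edgeR adjusted p = 4.21e-28, 2.1-fold). Changes of larger size were seen in 3.97% of tested genes in Kyse410 and 6.71% in TE10.

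KRT7, a type II keratin of glandular and ductal epithelium, was the most abundant member in both Kyse410 groups and changed little in either line. It had 2383.7, 2323.3 and 2337.9 CPM in the Kyse410 shUHRF1 libraries, against 2693.8, 2580.0 and 2726.0 CPM in the Kyse410 scramble libraries. In TE10 it had 2060.2, 2027.9 and 2072.2 CPM in shUHRF1, against 1775.8, 1748.3 and 1788.0 CPM in scramble. The groups did not overlap in either line, with shUHRF1 lower in Kyse410 and higher in TE10. The log2 fold changes were -0.18 in Kyse410 (SE 0.0305, edgeR adjusted p = 1.26e-06) and 0.21 in TE10 (SE 0.0309, edgeR adjusted p = 1.08e-07). The antisense gene KRT7-AS overlaps KRT7 and moved alike, by -0.11 in Kyse410 and 0.18 in TE10, with means of 670.3 CPM in Kyse410 shUHRF1, 722.0 in Kyse410 scramble, 562.6 in TE10 shUHRF1 and 498.1 in TE10 scramble. Without the strand setting, reads of KRT7 and KRT7-AS cannot be told apart.

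KRT80 had 373.8, 362.9 and 359.3 CPM in the TE10 shUHRF1 libraries, against 287.0, 273.2 and 285.8 CPM in the TE10 scramble libraries. Its groups in TE10 were clearly apart, and it rose by 0.37 on the log2 scale (SE 0.0390, edgeR adjusted p = 1.87e-11). In Kyse410 KRT80 had 870.5, 807.3 and 816.0 CPM in shUHRF1, against 878.3, 892.7 and 883.8 CPM in scramble. These groups nearly met, and the log2 fold change was -0.09 (SE 0.0349, edgeR adjusted p = 0.0279). That call was lost with RLE scaling (adjusted p = 0.0617), with no filter on low counts (0.0953), with the Kyse410 libraries fitted alone (0.0999) and in DESeq2 (0.0517). It was also lost without TE10 shUHRF1 replicate 1 (0.0978, log2 fold change -0.06), Kyse410 shUHRF1 replicate 2 (0.342, -0.05), Kyse410 shUHRF1 replicate 3 (0.114, -0.08), Kyse410 scramble replicate 2 (0.0776, -0.08) or Kyse410 scramble replicate 3 (0.0578, -0.09).

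**Figure D2:**
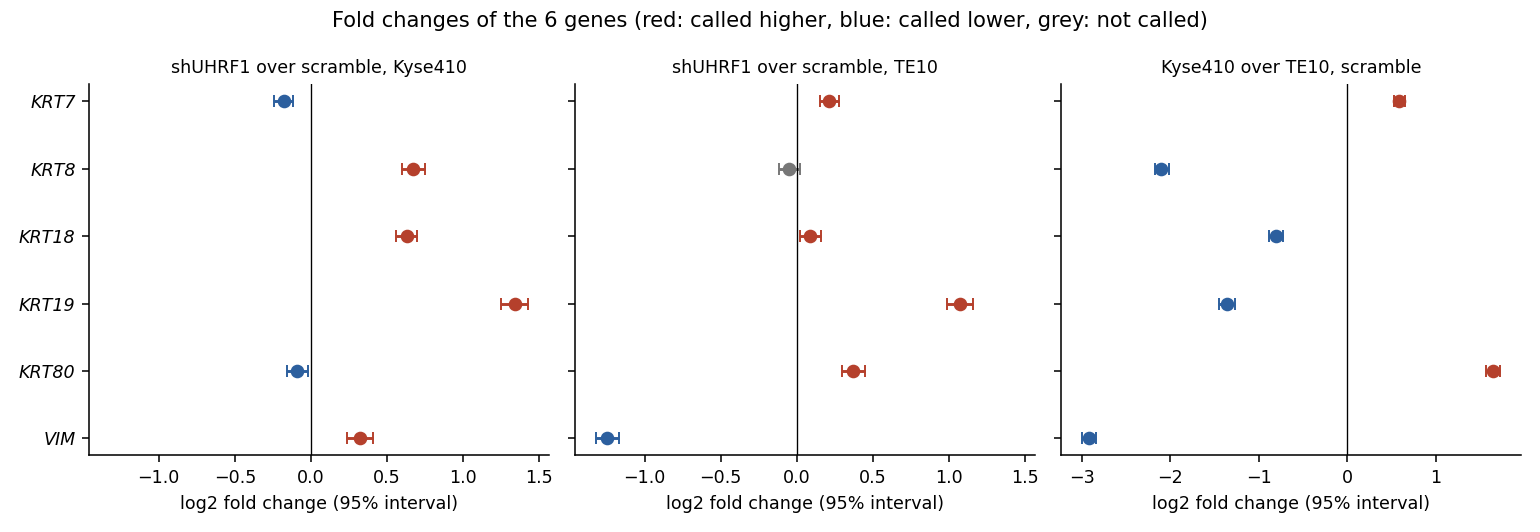
Log2 fold changes with 95% intervals from the edgeR fit (horizontal axes) for the 6 genes (rows): shUHRF1 over scramble in Kyse410, shUHRF1 over scramble in TE10, and Kyse410 over TE10 among scramble libraries. Red points were called higher, blue points lower and the grey point, KRT8 in TE10, was not called. VIM lies at 0.32 in Kyse410 and -1.25 in TE10.

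The responses of the 2 lines were compared by an interaction term, the log2 fold change in Kyse410 minus that in TE10. All 6 genes passed, 4 with a positive and 2 with a negative difference, against 38.9% of all tested genes called, 19.0% higher and 19.9% lower. VIM differed most, by 1.57 (SE 0.0576, edgeR adjusted p = 2.85e-28), and 3.79% of tested genes differed by more. KRT8 followed with 0.72 (SE 0.0512, edgeR adjusted p = 6.94e-17) and KRT18 with 0.54 (SE 0.0504, edgeR adjusted p = 7.51e-13). KRT80 with -0.46 (SE 0.0523, edgeR adjusted p = 2.21e-10) and KRT7 with -0.40 (SE 0.0434, edgeR adjusted p = 9.43e-11) responded lower in Kyse410 than in TE10. KRT19, which rose in both lines, rose by 0.27 more in Kyse410 (SE 0.0611, edgeR adjusted p = 0.000383).

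Among scramble libraries, Kyse410 and TE10 differed in all 6 genes. KRT7 and KRT80 were higher in Kyse410 and the other 4 were lower, against 73.7% of all tested genes called, 36.7% higher and 37.1% lower. VIM averaged 111.4 ± 2.95 CPM in Kyse410 scramble and 844.7 ± 9.0 in TE10 scramble (SD, n = 3 each), 7.57-fold lower in Kyse410 (log2 fold change -2.92, SE 0.0409, edgeR adjusted p = 4.91e-49). KRT8 averaged 538.4 ± 25.5 CPM in Kyse410 scramble and 2308.4 ± 18.4 in TE10 scramble (log2 fold change -2.10, SE 0.0375, edgeR adjusted p = 2.35e-44), 4.29-fold lower. Its partner KRT18 was 1.75-fold lower (log2 fold change -0.81, SE 0.0360, edgeR adjusted p = 1.83e-26) and KRT19 2.57-fold lower (-1.36, SE 0.0459, edgeR adjusted p = 7.72e-32). KRT80 averaged 884.9 ± 7.27 CPM in Kyse410 scramble and 282.0 ± 7.67 in TE10 scramble, 3.14-fold higher in Kyse410 (log2 fold change 1.65, SE 0.0375, edgeR adjusted p = 1.39e-39). KRT7 was 1.51-fold higher (0.59, SE 0.0308, edgeR adjusted p = 1.3e-23). The comparison of lines and each knockdown comparison share the scramble libraries, so their fold changes are not independent of each other.

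Levels of different genes were compared as CPM per kilobase of the principal transcript. In Kyse410 shUHRF1 the order was KRT7 at 1338.8, KRT18 at 493.6, KRT8 at 455.8, KRT80 at 215.4, KRT19 at 159.8 and VIM at 74.6 CPM per kb. In Kyse410 scramble it was the same order, with KRT7 at 1520.3, KRT18 at 318.8, KRT8 at 286.1, KRT80 at 229.3, KRT19 at 63.1 and VIM at 59.6. By this measure VIM was the lowest of the 6 in both Kyse410 groups. KRT19 exceeded it by little in Kyse410 scramble, 1.06 ± 0.0136 times per length within a library, and had fewer reads than VIM there. In TE10 shUHRF1 KRT8 stood at 1184.9 and KRT7 at 1170.7 CPM per kb, and these neighbours did not differ beyond their spread, with a ratio of KRT7 to KRT8 of 0.957 to 1.03. KRT18 followed at 593.6, KRT19 at 341.5, VIM at 190.3 and KRT80 at 94.7. In TE10 scramble KRT8 led at 1226.6, before KRT7 at 1009.5, KRT18 at 557.7, VIM at 452.2, KRT19 at 162.3 and KRT80 at 73.1 CPM per kb. In TE10 the 2 shRNAs thus gave VIM and KRT19 opposite places in the order. By mean CPM among all 57820 genes, KRT7 ranked 12 in both Kyse410 groups, 32 in TE10 shUHRF1 and 34 in TE10 scramble. VIM ranked 1470 in Kyse410 shUHRF1 and 2047 in Kyse410 scramble, and 433 in TE10 shUHRF1 and 108 in TE10 scramble.

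The balance of keratin to vimentin RNA was taken within each library as the summed reads of the 5 keratins over the reads of VIM, a ratio that library scaling does not touch. It was 37.3, 34.04 and 37.03 in the Kyse410 shUHRF1 libraries and 41.39, 42.1 and 42.41 in the Kyse410 scramble libraries. It was 17.38, 16.18 and 17.53 in the TE10 shUHRF1 libraries and 6.571, 6.407 and 6.408 in the TE10 scramble libraries. The 4 groups did not overlap. As mean log2 ratios they stood at 5.17 ± 0.0734 and 5.39 ± 0.0179 in Kyse410 shUHRF1 and scramble, and at 4.09 ± 0.0637 and 2.69 ± 0.0210 in TE10 shUHRF1 and scramble (SD, n = 3 each). Since the genes were chosen with results known, the balance is given without a test.

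The knockdown moved the balance of TE10 towards keratin by 1.40 on the log2 scale, or 2.63-fold, and that of Kyse410 by -0.22, to 0.86 of the scramble ratio. The change in Kyse410 minus that in TE10 was -1.61. Among scramble libraries the balance of Kyse410 exceeded that of TE10 by 2.70, or 6.49-fold. Per transcript length the ratio was 35.7 in Kyse410 shUHRF1, 40.5 in Kyse410 scramble, 17.8 in TE10 shUHRF1 and 6.7 in TE10 scramble. Most of the shift in TE10 came from the fall of VIM (log2 fold change -1.25). The summed CPM of the 5 keratins was 6050.7 ± 172.7 in TE10 shUHRF1 and 5457.9 ± 21.5 in TE10 scramble (SD, n = 3 each). The direction of the shift in Kyse410 depends on how the keratins are combined. The summed CPM of the 5 keratins was 5030.6 ± 138.5 in Kyse410 shUHRF1 and 4675.5 ± 86.5 in Kyse410 scramble (SD, n = 3 each), a smaller relative difference than that of VIM, so the ratio of the sum to VIM was lower in shUHRF1. The mean of the 5 separate log2 ratios, in which each keratin counts alike, was instead higher in shUHRF1 by 0.15.

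**Figure D3:**
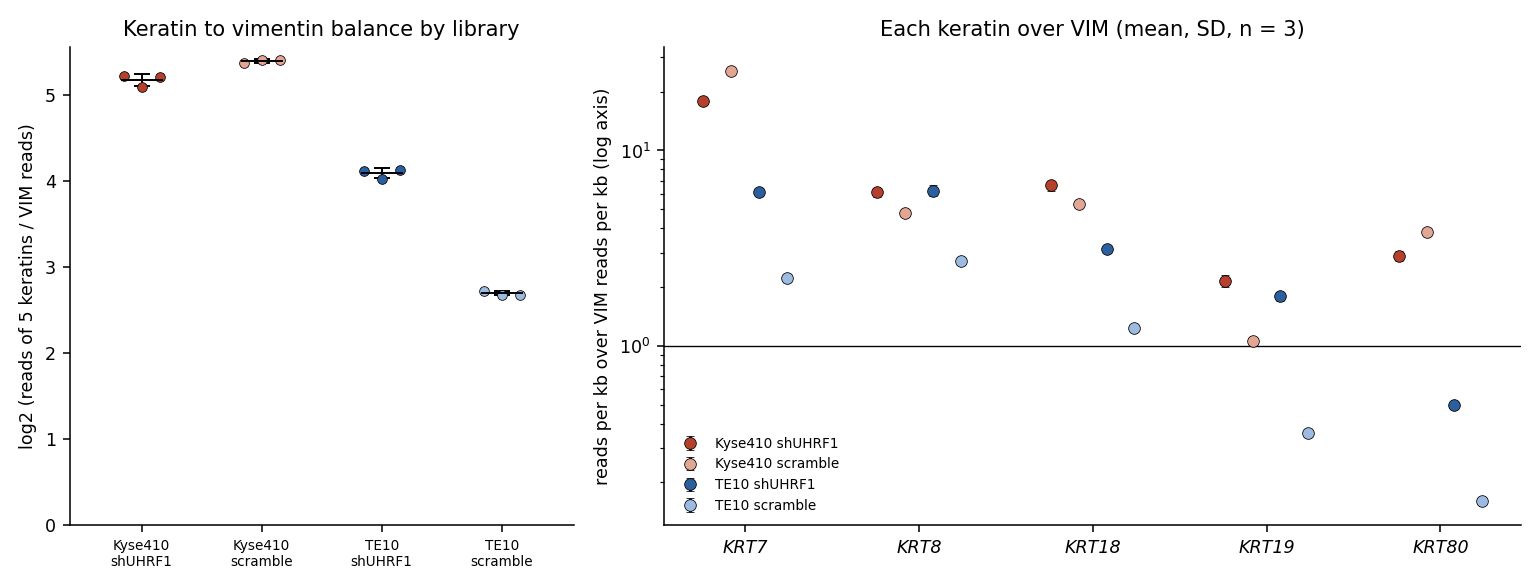
Left, log2 ratio of the summed reads of the 5 keratins to VIM reads in each library (vertical axis) by group (horizontal axis), with means and SD (n = 3). Right, reads per kb of each keratin over reads per kb of VIM in the same library (log axis), as group means with SD (n = 3), where the line marks equal levels. The log2 ratio averages 5.17 in Kyse410 shUHRF1 against 5.39 in Kyse410 scramble, and 4.09 in TE10 shUHRF1 against 2.69 in TE10 scramble.

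Taken one by one and per length, each keratin exceeded VIM in both Kyse410 groups. Without the length scaling, KRT19 reads were 0.787 ± 0.0101 times those of VIM in Kyse410 scramble. KRT7 was 17.96 ± 0.810 times VIM in Kyse410 shUHRF1 and 25.49 ± 0.597 times in Kyse410 scramble. KRT8 was 6.11 ± 0.309 times VIM in Kyse410 shUHRF1 and 4.80 ± 0.149 times in Kyse410 scramble, and KRT18 was 6.62 ± 0.391 and 5.34 ± 0.0341 times. KRT19 was 2.15 ± 0.150 times VIM in Kyse410 shUHRF1 and 1.06 ± 0.0136 times in Kyse410 scramble, and KRT80 was 2.89 ± 0.176 and 3.85 ± 0.132 times. In Kyse410, then, KRT7 and KRT80 lost ground to VIM while KRT8, KRT18 and KRT19 gained on it.

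In TE10 each of the 5 keratins gained on VIM, but the fall of VIM enters all 5 ratios, so they are not separate observations. KRT8 gained on VIM although its own change was not called (log2 fold change -0.05, edgeR adjusted p = 0.28). KRT7 was 6.15 ± 0.163 times VIM in TE10 shUHRF1 and 2.23 ± 0.0396 times in TE10 scramble, and KRT8 was 6.23 ± 0.409 and 2.71 ± 0.0466 times. KRT18 was 3.12 ± 0.116 times VIM in TE10 shUHRF1 and 1.23 ± 0.0213 times in TE10 scramble. KRT19 lay above VIM with the UHRF1 shRNA, at 1.80 ± 0.0901 times, and below it with the scramble shRNA, at 0.359 ± 0.00967 times. KRT80 stayed below VIM in both, at 0.498 ± 0.0153 times in TE10 shUHRF1 and 0.162 ± 0.00563 times in TE10 scramble.

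The make-up of the 5 keratins differed between the lines and between the shRNAs. Per length, KRT7 made up 50.3% of the 5 in Kyse410 shUHRF1 and 62.9% in Kyse410 scramble, and 34.6% in TE10 shUHRF1 and 33.3% in TE10 scramble. KRT8 made up 17.1% in Kyse410 shUHRF1 and 11.8% in Kyse410 scramble, and 35.0% in TE10 shUHRF1 and 40.5% in TE10 scramble. KRT19 took 6.0% in Kyse410 shUHRF1 and 2.61% in Kyse410 scramble, and 10.1% in TE10 shUHRF1 and 5.36% in TE10 scramble. KRT18 held 18.5% in Kyse410 shUHRF1 and 13.2% in Kyse410 scramble, and 17.5% in TE10 shUHRF1 and 18.4% in TE10 scramble. KRT80 held 8.09% in Kyse410 shUHRF1 and 9.49% in Kyse410 scramble, and 2.80% in TE10 shUHRF1 and 2.41% in TE10 scramble.

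**Figure D4:**
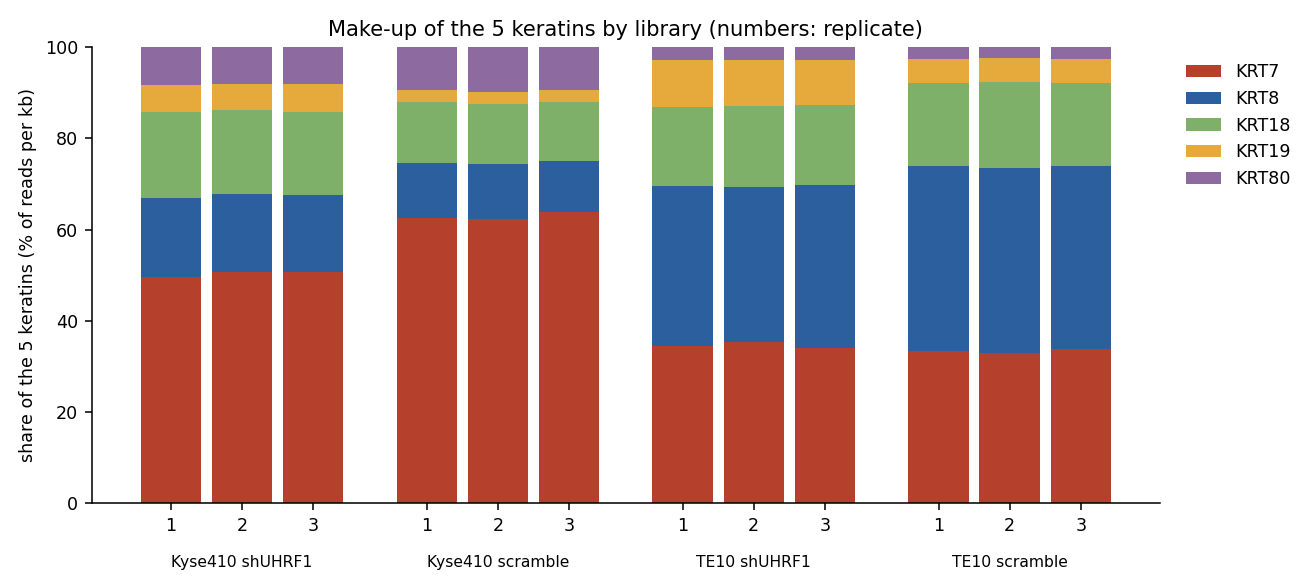
Share of each of the 5 keratins in their summed reads per kb (vertical axis, %) in each of the 12 libraries (bars, numbered by replicate within a group). KRT7 fills 50.3% on average in Kyse410 shUHRF1 and 62.9% in Kyse410 scramble, and the KRT19 band is wider with the UHRF1 shRNA in both lines.

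As type I and type II keratins pair one to one, the ratio of the type II genes KRT7, KRT8 and KRT80 to the type I genes KRT18 and KRT19 was read per length. It was 3.08 ± 0.0562 in Kyse410 shUHRF1 and 5.33 ± 0.112 in Kyse410 scramble, and 2.62 ± 0.0123 in TE10 shUHRF1 and 3.21 ± 0.0581 in TE10 scramble. The 5 genes thus had an excess of type II RNA in all 4 groups, which was smaller with the UHRF1 shRNA in both lines. Keratins outside the 5, among them the abundant KRT13 and KRT81, were left out of this ratio. KRT8 alone stood to KRT18 at 0.924 ± 0.00856 in Kyse410 shUHRF1 and 0.897 ± 0.0222 in Kyse410 scramble, near equality. In TE10 that ratio was 2.0 ± 0.0596 with the UHRF1 shRNA and 2.20 ± 0.0339 with the scramble shRNA. KRT19 to KRT18, the ratio of the 2 type I genes, was 0.324 ± 0.00984 in Kyse410 shUHRF1 and 0.198 ± 0.00169 in Kyse410 scramble, and 0.575 ± 0.0144 in TE10 shUHRF1 and 0.291 ± 0.00641 in TE10 scramble. RNA ratios carry no information on protein pairing.

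Seen against all 55 keratin genes read here, the 5 keratins made up 63.0 ± 0.256% of keratin CPM in Kyse410 shUHRF1 and 58.4 ± 0.178% in Kyse410 scramble, and 83.2 ± 0.134% in TE10 shUHRF1 and 81.5 ± 0.537% in TE10 scramble. Total keratin RNA was 7981 CPM in Kyse410 shUHRF1 and 8004 in Kyse410 scramble, and 7269 in TE10 shUHRF1 and 6697 in TE10 scramble. Of the 50 other keratin genes, 15 were tested, and their median log2 fold change was -0.35 in Kyse410 and -0.96 in TE10, against -0.03 and 0.00 for all tested genes. The TE10 median was the value of KRT23 (SE 0.854, edgeR adjusted p = 0.4), at 0.2 CPM in TE10 shUHRF1 and 0.4 in TE10 scramble. KRT12 and KRT83, at -3.31 and -2.79 in TE10, averaged 0.0 CPM in TE10 shUHRF1 and 0.1 in TE10 scramble. That median thus rested partly on genes with very few reads in TE10. In Kyse410 3 of the 15 rose and 6 fell, and in TE10 4 rose and 6 fell. Of all tested genes, 22.6% rose and 26.7% fell in Kyse410, and 18.8% rose and 20.0% fell in TE10.

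Among keratins of the basal squamous layer, KRT5 and KRT14 fell in TE10 and KRT15 was not called. KRT5 averaged 8.0 ± 0.455 CPM in TE10 shUHRF1 and 67.4 ± 1.06 in TE10 scramble (log2 fold change -3.06, edgeR adjusted p = 4.21e-28), and its type I partner KRT14 averaged 11.4 ± 0.986 and 55.2 ± 1.34 CPM (-2.28, edgeR adjusted p = 5.66e-23). KRT15, chosen for mention after its values were seen, averaged 26.7 ± 0.125 CPM in TE10 shUHRF1 and 28.7 ± 3.56 in TE10 scramble (-0.10, edgeR adjusted p = 0.466). In Kyse410 KRT14 fell as well, at 1.3 ± 0.571 CPM in shUHRF1 against 4.4 ± 0.650 in scramble (-1.79, edgeR adjusted p = 1.29e-08), while KRT5 (0.22, edgeR adjusted p = 0.59) and KRT15 (0.01, edgeR adjusted p = 0.969) were not called. KRT17, a keratin of activated and basal epithelium, fell in both lines, by 0.98 on the log2 scale in Kyse410 (edgeR adjusted p = 5.64e-19) and by 1.19 in TE10 (edgeR adjusted p = 2.12e-19). KRT6A, induced in wounded and hyperproliferative epithelium, fell by 0.76 in TE10 (edgeR adjusted p = 7.03e-20) and rose by 0.48 in Kyse410 (edgeR adjusted p = 5.74e-05). KRT13, the type I keratin of the upper layers of esophageal epithelium, rose in both lines, by 0.27 in Kyse410 (edgeR adjusted p = 1.31e-09) and 0.77 in TE10 (edgeR adjusted p = 1.54e-22). It averaged 1071.7 ± 34.9 CPM in Kyse410 shUHRF1 and 885.7 ± 12.2 in Kyse410 scramble, and 314.3 ± 4.53 in TE10 shUHRF1 and 183.6 ± 4.83 in TE10 scramble.

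The hair-type keratin KRT81 had more CPM in Kyse410 than any member other than KRT7. It averaged 1693.9 ± 22.7 CPM in Kyse410 shUHRF1 and 2180.2 ± 56.9 in Kyse410 scramble, and 558.4 ± 34.6 in TE10 shUHRF1 and 418.7 ± 41.6 in TE10 scramble. Like KRT7, it fell in Kyse410 (log2 fold change -0.36, edgeR adjusted p = 5.86e-11) and rose in TE10 (0.42, edgeR adjusted p = 3.21e-11). Its near copy KRT86, which overlaps KRT7 in the annotation, averaged 55.3 CPM in Kyse410 shUHRF1 and 86.3 in Kyse410 scramble, and 9.3 in TE10 shUHRF1 and 6.4 in TE10 scramble. KRT81 and KRT86 are so alike that the split of reads between them is uncertain.

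**Figure D5:**
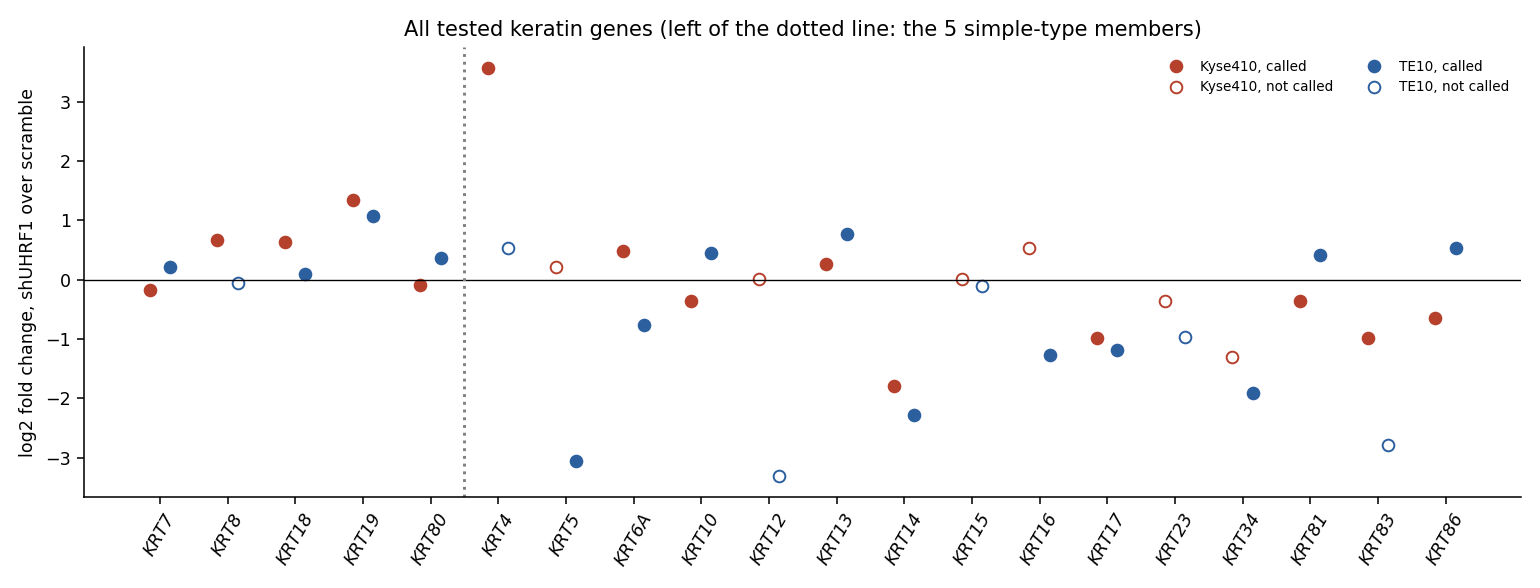
Log2 fold change of shUHRF1 over scramble (vertical axis) for the 5 keratins of the group, left of the dotted line, and the 15 other keratin genes tested, right of it. Red is Kyse410 and blue is TE10, with filled points called at an edgeR adjusted p under 0.05 and open points not called. KRT19, at 1.34 and 1.07, and KRT13, at 0.27 and 0.77, were higher in both lines, while KRT14 and KRT17 were lower in both.

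Other filament proteins were read for context. Of 16 further intermediate filament genes 9 were tested, of which 4 rose and none fell in Kyse410 and 2 rose and 2 fell in TE10, with a median log2 fold change of 0.19 in each line. The shares over all tested genes were 22.6% higher and 26.7% lower in Kyse410, and 18.8% and 20.0% in TE10. The lamin gene LMNB1 averaged 115.2 ± 2.15 CPM in Kyse410 shUHRF1 and 61.3 ± 0.988 in Kyse410 scramble (log2 fold change 0.91, edgeR adjusted p = 1.9e-21), whereas its change in TE10 was 0.06 (edgeR adjusted p = 0.28). LMNA, which encodes the A-type lamins, rose by 0.16 in Kyse410 (edgeR adjusted p = 0.00041) and fell by 0.18 in TE10 (edgeR adjusted p = 0.000105). NES, encoding nestin, a filament protein that assembles with vimentin, rose by 0.69 in Kyse410 (edgeR adjusted p = 3.19e-13) and 0.31 in TE10 (edgeR adjusted p = 0.000606). LMNB2 rose in TE10 by 0.32 (edgeR adjusted p = 4.91e-10), and SYNM, encoding synemin, was called in neither line, at -0.05 in Kyse410 and 0.19 in TE10.

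Genes whose proteins anchor or cross-link the filaments moved both ways. Of 11 tested, 3 rose and 4 fell in Kyse410 (median log2 fold change -0.01), and 3 rose and 5 fell in TE10 (median -0.13). Over all tested genes 22.6% were called higher and 26.7% lower in Kyse410, and 18.8% and 20.0% in TE10. DSP, encoding desmoplakin, which ties keratin to desmosomes, averaged 717.9 ± 22.6 CPM in Kyse410 shUHRF1 and 803.7 ± 9.26 in Kyse410 scramble, and 811.9 ± 36.9 in TE10 shUHRF1 and 1110.9 ± 19.7 in TE10 scramble. It fell by 0.16 in Kyse410 (edgeR adjusted p = 0.000103) and by 0.45 in TE10 (edgeR adjusted p = 1.22e-15). JUP, encoding plakoglobin, rose by 0.84 in TE10 (edgeR adjusted p = 2.23e-25) and by 0.13 in Kyse410 (edgeR adjusted p = 0.00201). PPL, encoding periplakin, which binds keratins and vimentin, rose by 0.87 in TE10 (edgeR adjusted p = 7.75e-22) and 0.34 in Kyse410 (edgeR adjusted p = 4.17e-10). The plakophilin gene PKP2 fell in both lines, by 0.55 in Kyse410 and 0.37 in TE10, and the cytolinker genes DST and MACF1 fell by 0.74 and 0.61 in TE10 and by 0.18 and 0.10 in Kyse410.

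Of 22 tested genes for kinases and binding partners of these filaments, 8 rose and 6 fell in Kyse410 (median log2 fold change 0.03), and 5 rose and 6 fell in TE10 (median -0.01). Among all tested genes the shares were 22.6% higher and 26.7% lower in Kyse410, and 18.8% and 20.0% in TE10. SFN, encoding 14-3-3 sigma, rose by 0.65 in Kyse410 (edgeR adjusted p = 5.85e-20) and fell by 0.21 in TE10 (edgeR adjusted p = 1.31e-05). YWHAZ, encoding 14-3-3 zeta, fell in both lines, by 0.47 in Kyse410 (edgeR adjusted p = 2.18e-16) and 0.51 in TE10 (edgeR adjusted p = 2.66e-17). The 14-3-3 gene YWHAG changed by -0.51 in Kyse410 (edgeR adjusted p = 1.07e-16) and by 0.10 in TE10 (edgeR adjusted p = 0.0358). PLK1, a mitotic kinase, rose in both, by 0.53 in Kyse410 (edgeR adjusted p = 2.69e-11) and 0.43 in TE10 (edgeR adjusted p = 9.05e-12). ROCK2, a kinase that phosphorylates vimentin, fell by 0.56 in Kyse410 (edgeR adjusted p = 1.28e-14), and its change in TE10 was 0.10 (edgeR adjusted p = 0.15). HSPB1, a small heat shock protein gene, rose by 0.49 in Kyse410 (edgeR adjusted p = 9.21e-12), and its change in TE10 was -0.03 (edgeR adjusted p = 0.586).

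To see which genes had the most similar pattern over the 12 libraries, each gene's log2 CPM was centred on its own mean and the root mean square difference from each member was taken among 9559 genes. Nearest to VIM were MSMO1 at 0.229, ANXA6 at 0.268 and KCTD12 at 0.269, on the log2 scale. Nearest to KRT19 were EEIG2 at 0.106, ACOT11 at 0.199 and FAM151A at 0.2, and nearest to KRT80 were DLG5 at 0.0595, ADIRF at 0.063 and C1orf116 at 0.0714. KRT18 was matched most closely by KIFC1 at 0.0548, HJURP at 0.0602 and NR2F6 at 0.0631. KRT8 was matched by NHERF1 at 0.0667, INCENP at 0.0799 and GLE1 at 0.0986, and KRT7 by TMEM259 at 0.0459, DVL1 at 0.052 and TNKS2 at 0.0531. No member was among the 3 nearest genes of another. These distances describe 4 groups of libraries, and a small one is easily reached by genes that change little.

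The RefSeq promoter window of VIM (GRCh38.p14, chr10:17227991-17228290, plus strand) is shown because VIM differed most between lines and between shRNAs in TE10. Its capitals mark the only match to any of the motifs searched on both strands, the GC-box letters GGGCGG.
VIM promoter: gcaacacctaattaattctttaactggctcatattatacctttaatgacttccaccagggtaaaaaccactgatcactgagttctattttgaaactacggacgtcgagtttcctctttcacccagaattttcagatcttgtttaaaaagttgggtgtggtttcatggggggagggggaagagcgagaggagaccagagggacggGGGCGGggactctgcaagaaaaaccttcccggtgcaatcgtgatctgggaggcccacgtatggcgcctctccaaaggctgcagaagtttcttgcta
This RefSeq start lies 1037 bases upstream of the start of the principal GENCODE transcript, so the window does not lie at that transcript's start. Which start these cells used was not measured. It held 10 CG dinucleotides, against a median of 14 over 35116 promoters, and 43.6% of promoters held fewer. GGGCGG occurs in 45.0% of all promoters of the table. The other motifs searched, TGANTCA (the AP-1 site), CAGGTG (an E-box) and TATAAA, had no match in this window and occur in 7.71%, 20.6% and 11.5% of all promoters. No DNA methylation or binding was measured in the files analysed here.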

How the data were processed

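The deposited files hold whole-number read counts per Ensembl gene ID, 1 file per library, made by the authors. Per the submitters' processing notes, the build was GRCh37.p13 and the tools included HTSeq 0.9.1, HISAT2 2.1.0, DESeq2 and bcl2fastq 2.19. Which annotation release and strand setting were used is not given in the sources used here. Per the labels' protocols, oligo dT beads and a VAHTS mRNA-seq V3 kit were used. Of all reads listed, 42.9 to 44.7% were in no gene, 1.38 to 1.98% were ambiguous and 5.49 to 6.87% not unique, and these were left out of library sizes.

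Symbols were found for 52338 of 57820 IDs, holding 99.02% of gene reads. NEFL, EPPK1 and PECAM1 were not analysed here. Counts were tested with edgeR 4.0.16 (R 4.3.3): TMM scaling, filterByExpr (16060 genes), a quasi-likelihood fit of 4 group means over 12 libraries with 8 residual degrees of freedom, and Benjamini-Hochberg adjustment over all genes tested, called under 0.05. The test was also run on simulated counts, which held far fewer changed genes than were called here and left out the interaction term. That run therefore cannot show how the test behaves in these data. CPM per kb used principal GENCODE v29 transcript lengths. Replicates of a group differed by 1.57 to 2.92 times the chi-square expected from counting alone, so none was counted as a copy. The named context genes are up to 5 per list and comparison by smallest adjusted p with a mean of at least 5 CPM. Not all of them are described. Outside this rule, KRT12, KRT23 and KRT83 are given for what they add to a median, and KRT4 and KRT15 were chosen after their values were seen. The similar genes are the 3 nearest by root mean square difference of centred log2 CPM (prior count 0.5). Other scalings, no filter, DESeq2 1.42.0, fits of single comparisons, a replicate block, single libraries left out and other balance formulas were tried. Adding antisense reads, and adding KRT81 and KRT86 to the balance, were chosen after their reads were seen. The members and lists were chosen with earlier results of these data known.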

Additional observations from a re-analysis of the deposited data

Results flagged for a closer look

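All 6 genes were marked because their response to the UHRF1 shRNA differed between Kyse410 and TE10 by a test of the difference itself, an interaction term in the edgeR fit. The log2 response in Kyse410 minus that in TE10 was 1.57 for VIM (edgeR adjusted p = 2.85e-28), 0.72 for KRT8 (6.94e-17), 0.54 for KRT18 (7.51e-13) and 0.27 for KRT19 (0.000383). It was -0.46 for KRT80 (2.21e-10) and -0.40 for KRT7 (9.43e-11). Such a difference was called in 38.9% of all genes tested, so the call alone sets none of the 6 apart, whereas the difference of VIM was exceeded in size by 3.79% of genes. For VIM, KRT7 and KRT80 the 2 lines went in opposite directions, and the call on KRT80 in Kyse410 was lost under other settings. With 3 libraries per group no search for single outlying libraries was made.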

How the results depend on the processing

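Of 410 values of single genes under other settings, 397 kept direction and side of the threshold and 13 kept direction but lost the call. All 13 concern KRT80 in Kyse410 and KRT18 in TE10. KRT80 in Kyse410 was -0.08 with RLE scaling, with no filter and in DESeq2 and -0.07 with the Kyse410 libraries fitted alone, and it ranged from -0.12 to -0.05 with 1 library left out. KRT18 in TE10 was 0.08 with no filter and 0.07 to 0.12 with 1 library left out. All 67 counts of genes called stayed within 1.5 times the reported count.

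The change of the keratin to vimentin balance in Kyse410, -0.22, reversed to 0.15 as the mean of the 5 log2 ratios and was -0.36 with KRT81 and KRT86 added. In TE10, 1.40 became 1.47 per summed exon length and 1.59 as the mean of ratios. The difference, -1.61, became -1.67 per exon length, -1.56 without KRT80, -1.44 as the mean of ratios and -1.78 with KRT81 and KRT86. Between lines, 2.70 became 2.60 per transcript length, 2.83 per exon length, 2.47 without KRT80, 2.52 as the mean of ratios, 2.78 with antisense reads added and 3.16 with KRT81 and KRT86. Leaving out single libraries gave -0.24 to -0.18 in Kyse410, 1.38 to 1.43 in TE10, -1.65 to -1.57 for the difference and 2.69 to 2.71 between lines.

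Replicate numbers did not pair the libraries: same-numbered libraries of different groups correlated at -0.047 to 0.04 in their deviations from the group means. Within a line, same-numbered libraries of the 2 shRNAs correlated at -0.004 to 0.019 in TE10 and -0.012 to 0.028 in Kyse410. A fit with the replicate block called 7975 genes in Kyse410, against 7921 without it, and 6319 in TE10, against 6231, and changed no call on the 6 genes. The lowest count of any of the 6 genes in a library was 850 reads, for KRT19. Overlapping, antisense and pseudogene reads limit how exactly the levels are known.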

Other observations

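HSPA8, encoding the constitutive heat shock protein HSC70 and named here as a keratin-binding chaperone, averaged 66.4 ± 3.39 CPM in Kyse410 shUHRF1 and 63.7 ± 3.26 in Kyse410 scramble, and 3148.0 ± 44.1 in TE10 shUHRF1 and 3427.4 ± 46.5 in TE10 scramble. Among scramble libraries it was 53.8-fold lower in Kyse410 (log2 fold change -5.75, edgeR adjusted p = 2.05e-61), and 0.168% of tested genes differed by more. The cause was not tested.

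KRT4, the type II partner of KRT13 in the upper layers of esophageal epithelium, was chosen for mention after its values were seen. It averaged 3.1 ± 0.199 CPM in Kyse410 shUHRF1 and 0.3 ± 0.201 in Kyse410 scramble (log2 fold change 3.57, SE 0.428, edgeR adjusted p = 5.69e-10), and 3.2 ± 0.618 in TE10 shUHRF1 and 2.2 ± 0.189 in TE10 scramble (0.53, SE 0.304, edgeR adjusted p = 0.17). No library held more than 39 reads of it.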
